A study of Mus musculus with 13 samples.

Results

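A set of 7 genes of the cholesterol pathway, Hmgcs1, Idi1, Fdps, Sqle, Dhcr7, Srebf2 and Insig1, were followed by their symbols through RNA sequencing counts of 13 mouse libraries. They are 7 of the 23238 symbols of a hippocampus table and 7 of the 24542 symbols of a glia culture table, and all 7 had counts in every library. The hippocampus came from 3xTg mice, an Alzheimer disease model in which Thy1 regulatory sequence drives mutant human tau and mutant human APP, on top of a mutated presenilin allele knocked in. In 4 of these libraries the mice had received adeno-associated virus 9 (AAV9) with Nurr1 and Foxa2, written N+F, and in 3 of them control AAV9. The labels give amyloid beta as a treatment of all 7 tissue libraries, controls included. The cultures were glia of postnatal day 1 ICR pups, from hippocampus and from cortex, with 1 library per group. Each region had N+F lentivirus with amyloid beta, control lentivirus with amyloid beta (amyloid beta control), and control lentivirus without amyloid beta (untreated). The age of the 3xTg mice, and whether a library came from 1 animal or from a pool, are not stated in the labels. A p-value in tissue therefore reflects variation among these libraries, which may be technical.

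The brain makes nearly all of its own cholesterol, because lipoproteins do not cross the blood-brain barrier, and astrocytes and myelinating oligodendrocytes are known for high synthesis. In the pathway, acetyl units are built into mevalonate, then isoprenoid diphosphates, then squalene, which is closed into sterol rings. Transcription of the enzymes is driven by SREBP-2, the product of Srebf2. When sterols are plentiful, Insig proteins hold SREBP and its escort Scap in the endoplasmic reticulum, and Insig1 is itself a target of SREBP. Hmgcs1, Idi1, Fdps, Sqle and Dhcr7 are enzymes, Srebf2 and Insig1 are regulators, and none of the 7 is an uptake receptor.

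Promoter sequence is shown for 4 of the genes, because SREBP-2 acts on such promoters together with the CCAAT-binding factor NF-Y. The RefSeq promoter table (build GRCm38.p6, each window running from 250 bases before to 50 bases after a transcription start) held windows for 5 of the 7, and Sqle and Fdps had no entry. Capitals mark the letters CCAAT and the sterol response element letters TCACNCCAC, each searched on both strands and also marked where it stands on the other strand as its complement. All sequences are written 5′ to 3′ and lie on the plus strand. The Hmgcs1 window is chr13:119690101-119690400, that of Idi1 chr13:8885356-8885655, that of Srebf2 chr15:82147019-82147318 and that of Insig1 chr5:28071162-28071461.
Hmgcs1: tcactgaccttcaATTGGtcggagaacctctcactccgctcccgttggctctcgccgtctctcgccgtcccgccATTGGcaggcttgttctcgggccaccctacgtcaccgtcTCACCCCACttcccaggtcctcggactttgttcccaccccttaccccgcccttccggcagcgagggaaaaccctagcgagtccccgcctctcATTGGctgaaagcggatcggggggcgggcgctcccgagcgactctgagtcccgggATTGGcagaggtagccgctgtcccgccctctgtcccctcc
Idi1: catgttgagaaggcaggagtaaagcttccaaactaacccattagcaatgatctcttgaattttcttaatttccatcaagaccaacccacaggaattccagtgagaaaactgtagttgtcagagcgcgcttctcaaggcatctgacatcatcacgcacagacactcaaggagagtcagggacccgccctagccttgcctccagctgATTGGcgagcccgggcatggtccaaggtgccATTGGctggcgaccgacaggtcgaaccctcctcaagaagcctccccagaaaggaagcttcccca
Srebf2: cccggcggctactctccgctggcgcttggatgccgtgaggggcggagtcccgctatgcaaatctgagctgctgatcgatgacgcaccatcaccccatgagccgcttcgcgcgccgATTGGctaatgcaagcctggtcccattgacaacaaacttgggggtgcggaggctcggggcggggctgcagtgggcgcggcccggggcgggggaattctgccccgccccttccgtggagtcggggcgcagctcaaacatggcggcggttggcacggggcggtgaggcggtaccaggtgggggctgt
Insig1: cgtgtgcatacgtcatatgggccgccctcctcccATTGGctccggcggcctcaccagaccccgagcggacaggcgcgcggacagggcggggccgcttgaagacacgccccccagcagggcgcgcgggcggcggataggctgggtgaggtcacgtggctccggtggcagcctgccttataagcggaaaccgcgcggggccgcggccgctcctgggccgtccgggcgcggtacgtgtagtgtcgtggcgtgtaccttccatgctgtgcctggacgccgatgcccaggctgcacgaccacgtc
The letters TCACNCCAC were present in Hmgcs1, 137 to 129 bases before the start, and in 1.24% of all 32851 windows. A longer exact form of the element was in 0.0913% of windows and in none of the 5 genes. CCAAT was in at least 1 window of all 5 genes, against 37.4% of all windows, and the GC box letters GGGCGG were in all 5 as well, against 35.7% of all windows. The counts are per gene and the shares per window, so they are not on 1 scale. Dhcr7 had 3 windows, with CCAAT in window 3 only and GGGCGG in windows 1 and 3. Of 14 other enzymes of the pathway with a window, 13 held CCAAT and 12 held GGGCGG. The letters TCACNCCAC were in 0 of these 14, and so was the longer exact form. In the windows of the 5 genes no match of 1 motif overlapped a match of another, and a match describes the sequence without showing a bound site.

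Totals ran from 10194437 to 25139406 counts in tissue and from 52189025 to 78273121 counts in culture. The 7 genes had 152 to 3716 counts per tissue library and 1097 to 25955 per culture library. Hmgcs1 and Idi1 each overlap another annotated gene on the opposite strand, and Srebf2 and Fdps each overlap 2 on their own strand. Such reads cannot be told apart. The delivered gene Nr4a2, which encodes Nurr1, had 271, 246, 255 and 419 counts in N+F tissue libraries 1 to 4, against 840, 234 and 567 in control libraries 1 to 3. The delivered gene Foxa2 had 26, 5, 1 and 6 counts in N+F tissue libraries 1 to 4, against 5, 1 and 1 in control libraries 1 to 3. Neither gene separated the tissue groups, so these counts do not check the tissue labels, and N+F there means libraries labelled so. In hippocampal glia Nr4a2 had 29479 counts with N+F, 250 in the amyloid beta control and 3941 in the untreated library, and in cortical glia 2890, 312 and 991. In hippocampal glia Foxa2 had 8482 counts with N+F and 0 in the amyloid beta control and untreated libraries, and in cortical glia it had 1059 with N+F and 0 in the other two. The untreated cultures stood apart from their glia label. The summed level of 10 neuron markers was 229 to 249 CPM (counts scaled to a fixed library total) with N+F and 304 to 319 CPM in amyloid beta control libraries, against 7935 to 8245 CPM in untreated libraries. That of 10 oligodendrocyte markers was 262 to 483 CPM with N+F and 181 to 306 CPM in amyloid beta control libraries, against 8138 to 9704 CPM in untreated libraries. The 10 astrocyte markers summed to 5641 to 9224 CPM over all 6 culture libraries, and none was at 0. Their medians differed more, at 264 and 243 CPM in untreated hippocampal and cortical glia, against 622 and 882 CPM in amyloid beta controls. With N+F these medians were 407 and 410 CPM. The cortical N+F library also differed from the others, with 9118 CPM over 9 mural and fibroblast markers, against 496 CPM in its amyloid beta control.

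In 3xTg hippocampus the question was whether N+F delivery went with a difference in these genes. None of the 7 passed the test, and the N+F and control libraries overlapped for all 7. Fold changes were above 0 for 4 and below 0 for 3, all within 0.24 on the log2 scale in either direction. edgeR's quasi-likelihood test with Benjamini-Hochberg adjustment called 0 of the 7 (0 also at an unadjusted p under 0.05, and 0 by DESeq2). Of all 15523 genes 0.11% were called and 8.46% had an unadjusted p under 0.05. Groups did not overlap in 0 of the 7, against 8.11% of all genes. The median log2 fold change was 0.07 for the 7 and -0.0044 for all genes tested.

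Hmgcs1 encodes the enzyme that makes HMG-CoA, the precursor of mevalonate. It measured 82.3, 136, 126 and 116 TMM-scaled CPM (scaled for library composition) in N+F libraries 1 to 4, against 133, 117 and 117 in control libraries 1 to 3. N+F library 1 was the low value, and the other 3 N+F libraries lay around the controls. The log2 fold change was -0.09 ± 0.16 (SE, adjusted p = 0.936 by edgeR), with a 95% interval of -0.44 to 0.26. Sqle, squalene epoxidase, which carries out the first oxygen-requiring step, had 21.7, 33.0, 30.1 and 28.6 CPM in N+F libraries, against 31.9, 29.0 and 30.4 in controls. Its order of libraries was close to that of Hmgcs1, again with N+F library 1 lowest. The log2 fold change was -0.10 ± 0.15 (SE, adjusted p = 0.919 by edgeR).

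Idi1 encodes the isomerase that interconverts the isoprenoid building blocks. Its level was 26.0, 38.6, 30.9 and 39.0 CPM in N+F libraries, against 31.3, 29.7 and 27.7 in controls. N+F libraries 2 and 4 lay above all controls and N+F library 1 below them. The log2 fold change was 0.19 ± 0.16 (SE, adjusted p = 0.827 by edgeR), with an interval of -0.16 to 0.54. Fdps, farnesyl diphosphate synthase, had 67.4, 89.4, 95.7 and 87.7 CPM in N+F libraries, against 74.7, 79.6 and 88.2 in controls, a log2 fold change of 0.07 ± 0.14 (SE, adjusted p = 0.937 by edgeR). Dhcr7, the reductase that ends one branch of cholesterol synthesis, had 15.3, 15.6, 20.3 and 16.5 CPM in N+F libraries, against 18.0, 15.3 and 13.8 in controls, a log2 fold change of 0.10 ± 0.16 (SE, adjusted p = 0.929 by edgeR). For both genes the groups overlapped.

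Of the regulators, Srebf2 had the difference farthest from 0. It measured 33.0, 34.3, 48.8 and 48.1 CPM in N+F libraries, against 43.1, 47.4 and 55.2 in controls. N+F libraries 1 and 2 lay below all controls, and N+F libraries 3 and 4 lay among them. The means were 41.0 ± 8.56 CPM with N+F and 48.6 ± 6.10 CPM in controls (SD, n = 4 and 3), with a log2 fold change of -0.24 ± 0.17 (SE, adjusted p = 0.781 by edgeR) and an interval of -0.61 to 0.13. Insig1 had 35.1, 40.6, 38.5 and 39.4 CPM in N+F libraries, against 42.6, 33.4 and 28.3 in controls. Here the controls were the more spread group, and all N+F values lay within their range. The log2 fold change was 0.14 ± 0.15 (SE, adjusted p = 0.870 by edgeR). The lowest interval end among the 7 genes was 0.656-fold, for Srebf2, and the highest was 1.45-fold, for Idi1, and every one of the 7 intervals spanned 0 on the log2 scale.

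**Figure D1:**
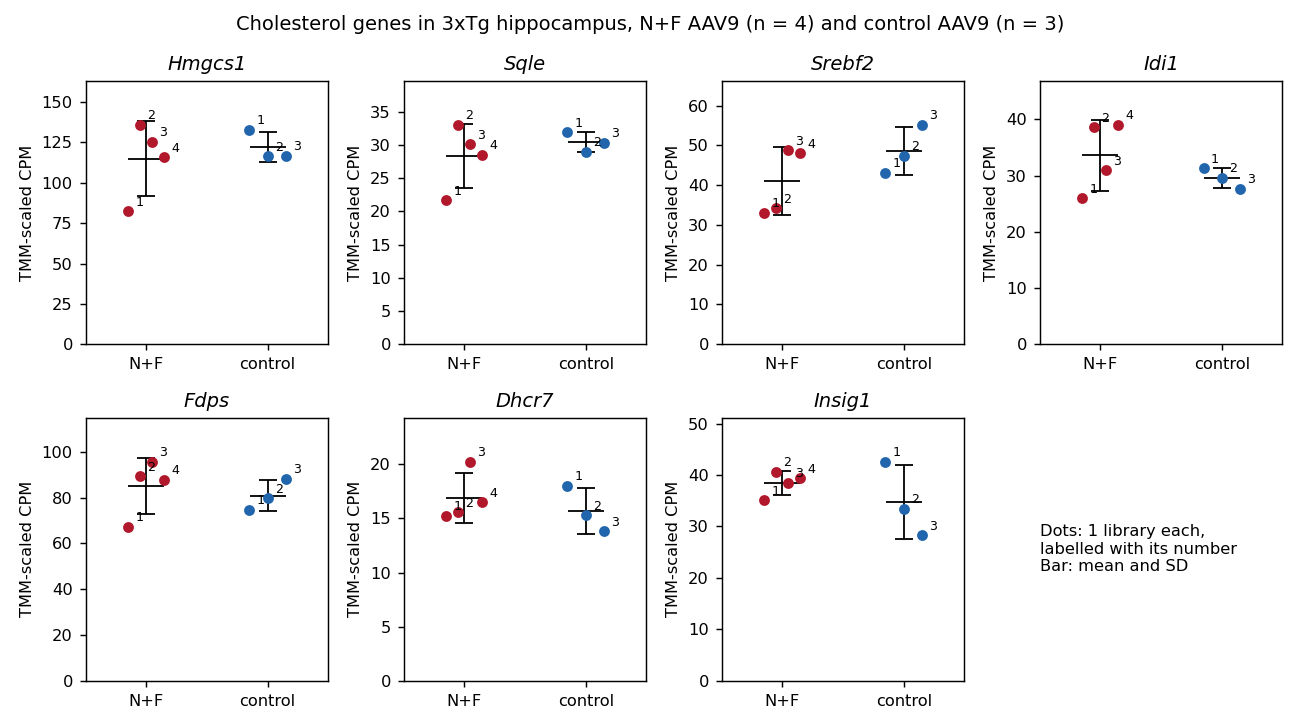
TMM-scaled CPM of each gene (y axis, from 0) in 3xTg hippocampus, with 4 N+F libraries on the left and 3 control libraries on the right of each panel. Dots are libraries marked with their number, and bars give the mean and SD. The groups overlap in all 7 panels, and N+F library 1 is the lowest dot for 5 genes.

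N+F library 1 was the lowest of all 7 libraries for Hmgcs1, Sqle, Srebf2, Idi1 and Fdps. The 7 genes summed to 281 TMM-scaled CPM in that library and to 387, 390 and 375 in N+F libraries 2 to 4, against 375, 351 and 360 in control libraries 1 to 3. Without N+F library 1 the log2 fold changes of Hmgcs1 and Sqle were 0.041 and 0.0056, with the sign turned. The neuron markers of that library summed to 4885 CPM, the lowest of the 7 libraries, against 5999 to 6787 CPM in controls, and their part in the low values was not tested. Hmgcs1 and Sqle moved together across libraries, with Pearson r = 0.99 over 7 libraries and 0.92 over the 6 without N+F library 1. Of the 21 pairs among the 7 genes, 18 had a positive r with a median of 0.38. Without N+F library 1 it was 13 pairs, with a median of 0.12. The pair with the lowest r was Srebf2 and Insig1, at -0.44. These points share libraries and their scaling, and the values are descriptions.

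Summed cell type markers were not tested between the tissue groups. The ranges did not overlap for astrocyte, microglia, and mural and fibroblast markers, and overlapped for the other lists. Astrocyte markers summed to 2457 to 2915 CPM with N+F, against 2977 to 3793 CPM in controls. Their medians per library overlapped, at 104 to 125 CPM with N+F and 117 to 140 CPM in controls. Medians did not overlap for microglia, for mural and fibroblast, and for neuron markers, and the neuron sums did overlap. Oligodendrocyte markers, from the other cell type known for high synthesis, summed to 23321 to 28591 CPM with N+F, against 23576 to 33628 CPM in controls. Microglia markers summed to 384 to 550 CPM with N+F, against 553 to 637 CPM in controls. Endothelial markers summed to 38.4 to 58.3 CPM with N+F, against 57.3 to 81.9 CPM in controls. Mural and fibroblast markers summed to 72.5 to 104 CPM with N+F, against 111 to 419 CPM in controls, and 7 choroid plexus markers to 146 to 4014 CPM with N+F, against 1139 to 3174 CPM in controls. The 8 oligodendrocyte precursor markers summed to 104 to 144 CPM with N+F, against 143 to 201 CPM in controls. No marker of these lists was at 0 in any tissue library. In bulk tissue fewer cells of a type and less RNA per cell cannot be told apart, and the part of these markers in the values of the 7 genes was not tested.

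In the cultures the comparison of N+F with the amyloid beta control asked what the 2 delivered factors went with when both libraries had amyloid beta. In 0 of the 7 genes was the difference 2-fold or more with one direction in both regions, against 2.19% of 13479 genes. Insig1 was the gene with a higher level in both, at 20.9 CPM with N+F against 14.7 CPM in the amyloid beta control of hippocampal glia, and 107 against 48.6 CPM in cortical glia. The other 6 had opposite signs in the 2 regions, as did 50.6% of all genes. The largest differences among the enzymes were in different regions, with Idi1 higher with N+F in hippocampal glia and Fdps lower with N+F in cortical glia.

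Each culture value is a single library with no replicate error, and culture differences are given on the scale of log2(CPM + 1). Insig1 had log2 ratios of 0.48 in hippocampal and 1.13 in cortical glia. As plain ratios of CPM these were 1.42 (95% counting interval 1.31 to 1.54) and 2.21 (2.12 to 2.31), intervals that cover counting error only. The cortical Insig1 value was the single difference of at least 2-fold among the 7 genes, where 27.9% of genes differed that much in cortical glia and 6.36% in hippocampal glia. Idi1 measured 58.4 CPM with N+F against 30.6 CPM in the amyloid beta control of hippocampal glia, and 34.9 against 45.9 CPM in cortical glia. Its log2 ratios were 0.91 and -0.39. It was thus higher with N+F in hippocampal glia and lower with N+F in cortical glia, and the difference between regions has no replicates behind it.

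Fdps had 48.2 CPM with N+F against 44.6 CPM in the amyloid beta control of hippocampal glia, and 31.0 against 58.0 CPM in cortical glia, log2 ratios of 0.11 and -0.88. Sqle had 81.7 against 74.6 CPM in hippocampal glia and 67.5 against 104 CPM in cortical glia, log2 ratios of 0.13 and -0.62. Both were near their amyloid beta control in hippocampal glia and below it in cortical glia. Dhcr7 had 27.2 CPM with N+F against 28.3 CPM in hippocampal glia and 40.2 against 30.2 CPM in cortical glia, log2 ratios of -0.05 and 0.40. Srebf2 had 176 against 203 CPM in hippocampal glia and 205 against 192 CPM in cortical glia, log2 ratios of -0.20 and 0.10. Hmgcs1 had 226 against 236 CPM in hippocampal glia and 332 against 329 CPM in cortical glia, log2 ratios of -0.07 and 0.012. By the larger of the 2 regional values Hmgcs1 and Srebf2 differed least, although Srebf2 differed more than Sqle, Fdps and Dhcr7 in hippocampal glia, and Hmgcs1 hides a split between table lines that is described further on.

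The scale of all genes moved in this comparison. The median log2 ratio of all genes was 0.12 in hippocampal and -0.18 in cortical glia, and that of the 7 genes was 0.11 and 0.012. With TMM scaling (composition-adjusted CPM) the ratios moved by -0.13 in hippocampal and by 0.16 in cortical glia, which turned Sqle and Fdps in hippocampal glia just below 0 and left 4 genes with opposite signs in the regions. An edgeR quasi-likelihood fit over both regions, with region and condition as additive terms, called 0 of the 7 and 0.0% of 16762 genes with N+F, with 1156 genes (6.9%) at an unadjusted p under 0.05, none of them among the 7. DESeq2 on the same design called 477 genes (2.9%), also none of the 7. Insig1 had a log2 fold change of 0.95 ± 0.58 in the edgeR fit (SE, adjusted p = 0.713), with an interval of -0.54 to 2.44, and -0.08 without the cortical N+F library. With 2 residual degrees of freedom, that fit takes its error from disagreement between hippocampal and cortical glia and not from replicate cultures. The cortical N+F library held the high mural and fibroblast markers given above, and their part in the cortical ratios was not tested.

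**Figure D2:**
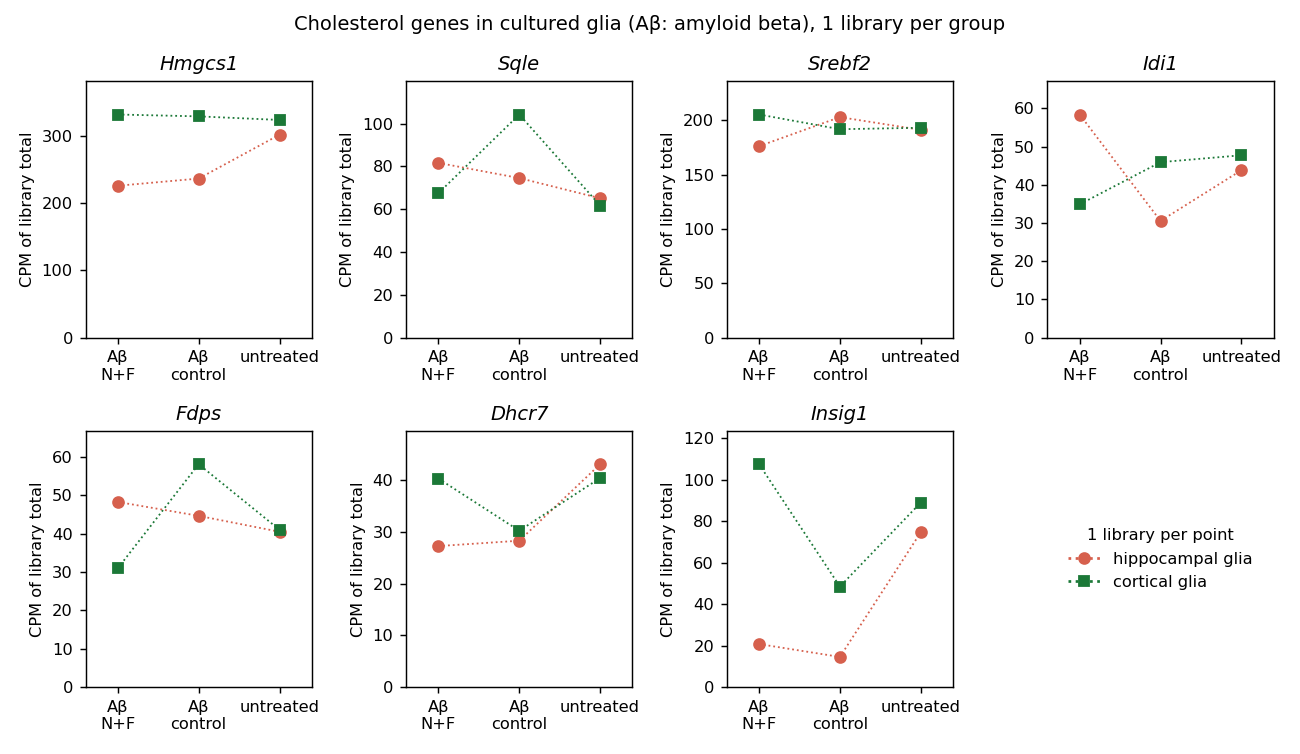
CPM of the library total (y axis, from 0) of each gene in the 3 groups of hippocampal glia (circles) and cortical glia (squares), 1 library per point, with dotted lines joining libraries of a region. Insig1 is the gene with the widest range, from 14.7 CPM in the hippocampal amyloid beta control to 107 CPM in cortical glia with N+F, and Srebf2 the narrowest, from 176 to 205 CPM.

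Amyloid beta was compared in the control lentivirus libraries with and without it. The amyloid beta control library of each region is also the reference of its N+F ratio. A low or high value in that library moves the 2 ratios of a gene in opposite directions, so the 2 comparisons are not independent. Again 0 of the 7 genes passed 2-fold in the same direction in hippocampal and cortical glia, here against 38.1% of 14516 genes. Insig1 was lower with amyloid beta in both regions, and Dhcr7 was lower in both by less. Sqle and Fdps were higher in both regions. All of these ratios hold the difference in neuron and oligodendrocyte markers given above as well, and their part was not tested.

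Insig1 had 14.7 CPM in the amyloid beta control against 74.7 CPM in untreated hippocampal glia, and 48.6 against 89.0 CPM in cortical glia. The log2 ratios were -2.27 and -0.86, or 0.197 (95% counting interval 0.184 to 0.210) and 0.546 (0.521 to 0.572) as plain ratios of CPM. The hippocampal value was past 2-fold, as were 46.6% of genes there, and the cortical value was not, where 45.2% of genes were. In the additive fit its log2 fold change was -1.73 ± 0.60 (SE, edgeR adjusted p = 0.0815, unadjusted p = 0.0341), with an interval of -3.26 to -0.19. It ran from -2.53 without the cortical untreated library to -0.59 without the hippocampal untreated library. That was the nearest to a call among the 7, in a comparison where 33.1% of 16762 genes were called and 46.8% had an unadjusted p under 0.05. DESeq2 on the same design gave Insig1 an adjusted p of 0.0154, where 7559 genes (42.9%) were called. In the edgeR fit the Insig1 log2 fold change was -1.58 without the hippocampal N+F library and -1.57 without the cortical N+F library. Each fit with a library left out leaves 1 library in a group, so no calls are given for these fits.

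Dhcr7 had 28.3 CPM in the amyloid beta control against 43.0 CPM in untreated hippocampal glia, and 30.2 against 40.3 CPM in cortical glia, log2 ratios of -0.59 and -0.41. Sqle had 74.6 against 65.2 CPM in hippocampal glia and 104 against 61.8 CPM in cortical glia, log2 ratios of 0.19 and 0.75. Fdps had 44.6 against 40.5 CPM in hippocampal glia and 58.0 against 41.0 CPM in cortical glia, log2 ratios of 0.14 and 0.49. Sqle was thus the enzyme with the larger cortical difference. Idi1 had 30.6 against 43.8 CPM in hippocampal glia and 45.9 against 47.7 CPM in cortical glia, log2 ratios of -0.51 and -0.05. Hmgcs1 had 236 against 302 CPM in hippocampal glia and 329 against 323 CPM in cortical glia, log2 ratios of -0.35 and 0.024. Srebf2 had 203 against 191 CPM in hippocampal glia and 192 against 193 CPM in cortical glia, log2 ratios of 0.09 and -0.0099, the second of which was 0.03 with TMM scaling. The median over the 7 genes was -0.35 in hippocampal and -0.0099 in cortical glia, against -0.03 and -0.0065 for all genes.

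**Figure D3:**
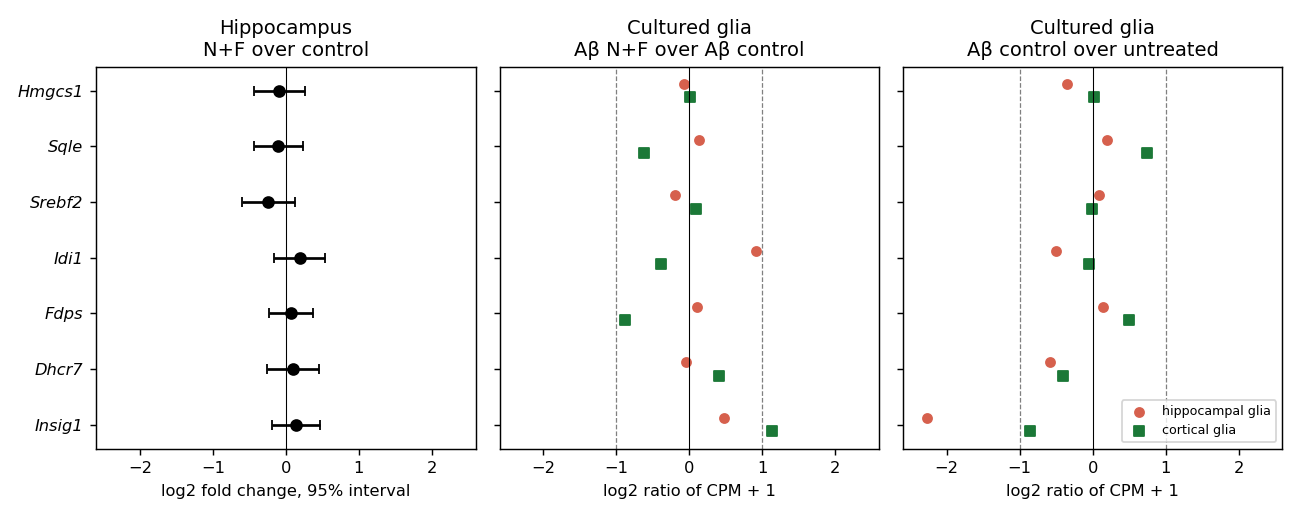
Differences of the 7 genes (rows). The left panel gives the log2 fold change of N+F over control in hippocampus with its 95% interval, and the other panels give log2 ratios of CPM + 1 in hippocampal (circles) and cortical glia (squares), with dashed lines at 2-fold. All tissue intervals span 0, and Insig1 passes 2-fold once in each culture comparison, in cortical glia with N+F (1.13) and in hippocampal glia with amyloid beta (-2.27).

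Over all 6 cultures the level of Insig1 was ordered as cortical N+F, cortical untreated, hippocampal untreated, cortical amyloid beta control, hippocampal N+F and hippocampal amyloid beta control, a 7.32-fold range. Idi1 spanned 1.91-fold, Fdps 1.87-fold, Sqle 1.69-fold, Dhcr7 1.58-fold, Hmgcs1 1.47-fold and Srebf2 1.17-fold. With 1 library per group, neighbours in these orders cannot be separated beyond counting error. Among the 21 pairs of genes 10 had a positive r over the 6 cultures, with a median of -0.08, from -0.93 for Srebf2 and Idi1 to 0.91 for Hmgcs1 and Insig1.

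Hmgcs1 and Fdps each had 2 lines in the culture table, and the other 5 genes had 1. In the RefSeq annotation both have 2 curated transcripts, and 75.9% of the 6220 symbols with several lines had as many lines as curated transcripts. The files do not say which transcript a line stands for. The second Fdps line held 20.8% of the gene's counts with N+F and 34.5% in the amyloid beta control of hippocampal glia, against 0.951% in the untreated library. In cortical glia it held 42.0% with N+F and 15.4% in the amyloid beta control, against 1.03% in the untreated library. The exact binomial 95% intervals of these shares cover counting error only, in single libraries with no replicates, and ran from 0.646 to 1.55% in untreated cortical glia and from 40.1 to 44.0% in cortical glia with N+F. The second line held under 2% of the gene in both untreated libraries and more in all 4 libraries with amyloid beta, the same split as that of the neuron and oligodendrocyte markers, whose part was not tested.

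For Hmgcs1 the cortical N+F library was the exception. Its second line held 72.0% of the gene's counts there, against 44.6% in the cortical amyloid beta control and 46.9% in the cortical untreated library. In hippocampal glia it held 44.6% with N+F and 42.2% in the amyloid beta control, against 51.0% in the untreated library. As levels, the first line was at 92.8 CPM with N+F against 182 CPM in the cortical amyloid beta control, and the second line at 239 against 147 CPM, so that the sum differed little. Taking the line with the highest total in place of the sum gave Hmgcs1 a cortical N+F log2 ratio of 0.70 and Fdps one of -1.41. For amyloid beta in hippocampal glia it gave Fdps -0.51, a turned sign. In the tissue table each of the 7 genes had 1 line.

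**Figure D4:**
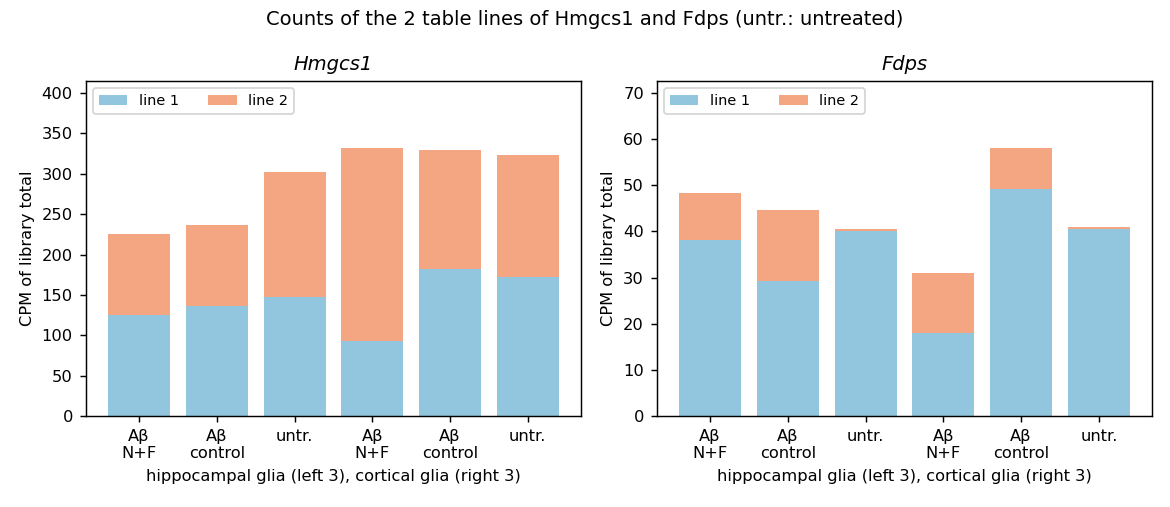
CPM of the library total of the 2 table lines of Hmgcs1 (left) and Fdps (right), stacked, in the 3 groups of hippocampal glia and then of cortical glia, 1 library per bar. The second Fdps line holds 0.951 and 1.03% of the gene in untreated libraries and 15.4 to 42.0% in the others, and the second Hmgcs1 line reaches 72.0% in cortical glia with N+F.

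The rest of the pathway was read from lists chosen with earlier results of these data known. A list of 17 other synthesis enzymes ran from acetoacetyl-CoA to the last sterol steps and also held Ggps1, on a side branch at farnesyl diphosphate. Of the 17, 0 passed the tissue test, with a median log2 fold change of -0.06, a range from -0.31 to 0.26 and 5 positive. With N+F in culture, 0 differed at least 2-fold in both regions. In hippocampal glia 14 of the 17 were positive with a median of 0.22, and in cortical glia 13 of the 17 were negative with a median of -0.47. The medians of all genes had the same signs, 0.12 and -0.18. Together with the 5 enzymes among the 7 genes, 17 of 22 synthesis enzymes were positive in hippocampal glia and 16 of 22 negative in cortical glia. Of all 13479 genes, 8632 were positive in hippocampal glia and 7939 negative in cortical glia. Mvk, mevalonate kinase, was at least 2-fold lower with N+F in cortical glia, at 9.58 against 24.8 CPM, and had 18.2 CPM in both hippocampal libraries. Ggps1, which extends farnesyl diphosphate, had 23.3 against 53.2 CPM in cortical glia and 61.9 against 40.0 CPM in hippocampal glia. These 2 genes were the only ones of the 17 at least 2-fold apart in cortical glia, where 27.9% of all genes were. In hippocampal glia 0 of the 17 were, against 6.36% of all genes. Mvk and Ggps1 were named after their values were seen.

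With amyloid beta, 1 of the 17 was at least 2-fold higher in both regions and 0 at least 2-fold lower, where 16.6% of all genes were higher and 21.5% lower. That gene, named after its values were seen, was Nsdhl, which removes a methyl group from sterol intermediates, at 71.0 against 26.0 CPM in hippocampal glia and 80.6 against 22.7 CPM in cortical glia. The median of the 17 was -0.47 in hippocampal and -0.10 in cortical glia, with 12 and 10 negative. Of all 14516 genes, 7383 were negative in hippocampal and 7285 in cortical glia.

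Of 13 genes that control SREBP or take up and move cholesterol, 0 passed the tissue test, with a median log2 fold change of -0.06 and 3 positive. In 2 of the 13, Lrp1 and Npc2, named after their values were seen, all N+F libraries lay below all controls, where 8.11% of all genes had groups that did not overlap. With N+F in culture, 2 of the 12 that reached 1 CPM were at least 2-fold higher in both regions and 0 lower, against 2.07% of all genes higher. They were Insig2, the paralog of Insig1 in the same sterol brake, and Mylip, a ligase that marks lipoprotein receptors for breakdown. Insig2 measured 77.0 CPM with N+F against 26.1 CPM in the amyloid beta control of hippocampal glia, and 92.8 against 19.3 CPM in cortical glia, log2 ratios of 1.53 and 2.21 (edgeR additive fit adjusted p = 0.530). Mylip measured 12.2 against 2.52 CPM in hippocampal glia and 9.26 against 3.38 CPM in cortical glia, log2 ratios of 1.91 and 1.23 (edgeR additive fit adjusted p = 0.605). Both Insig genes were thus higher with N+F in both regions, while the tissue log2 fold changes were 0.14 for Insig1 and -0.05 ± 0.18 for Insig2 (SE, edgeR adjusted p = 0.968).

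With amyloid beta, 3 of the 12 genes that control SREBP or move cholesterol were at least 2-fold higher in both regions and 1 was lower, where 16.6% of all genes were higher and 21.5% lower. The higher genes were Srebf1, Scap and Npc2, the first 2 named here after their values were seen, and the lower gene was Mylip. Markers of neurons, oligodendrocytes and other cell types differed between the same libraries, as given above, and their part was not tested. Srebf1, the paralog of Srebf2 known mainly for fatty acid synthesis, had 216 CPM in the amyloid beta control against 72.9 CPM in untreated hippocampal glia, and 353 against 64.7 CPM in cortical glia (log2 ratios 1.55 and 2.43, edgeR additive fit adjusted p = 0.0116). Srebf2 had log2 ratios of 0.09 and -0.0099 (0.03 in cortical glia with TMM scaling). With N+F Srebf1 was lower in both regions, at 149 against 216 CPM in hippocampal glia and 203 against 353 CPM in cortical glia. Scap, the escort of both SREBP proteins, had 232 CPM in the amyloid beta control against 113 CPM in untreated hippocampal glia and 215 against 106 CPM in cortical glia (edgeR additive fit adjusted p = 0.0262). Npc2, which moves cholesterol out of lysosomes, had 194 against 75.0 CPM in hippocampal glia and 230 against 71.6 CPM in cortical glia (edgeR additive fit adjusted p = 0.0819). Mylip had 2.52 against 26.4 CPM in hippocampal glia and 3.38 against 18.8 CPM in cortical glia (log2 ratios -2.96 and -2.18, edgeR additive fit adjusted p = 0.00825). These adjusted p-values stand in a fit that called 33.1% of all genes. Insig2 had 26.1 against 49.7 CPM in hippocampal glia and 19.3 against 40.8 CPM in cortical glia, log2 ratios of -0.91 and -1.04. Both Insig genes were thus lower with amyloid beta in both regions, and higher with N+F over the same amyloid beta control libraries. The 2 comparisons share these libraries, so the opposite signs are not independent, for Mylip and Srebf1 as well. Of 12 fatty acid synthesis genes 4 were at least 2-fold higher with amyloid beta in both regions and 1 lower, beside the same 16.6% and 21.5% of all genes, with medians of 0.68 and 0.66. With N+F 0 of the 12 were 2-fold apart in both regions, with medians of -0.11 in hippocampal and -0.66 in cortical glia and 11 of 12 negative in cortical glia. Of all 13479 genes, 7939 were negative there. Of 11 genes of cholesterol export, storage and oxysterol formation 5 were at least 2-fold higher and 4 lower with amyloid beta in both regions, again beside 16.6% and 21.5% of all genes. With N+F 0 of the 11 were 2-fold apart in both regions, and 0 passed the tissue test.

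**Figure D5:**
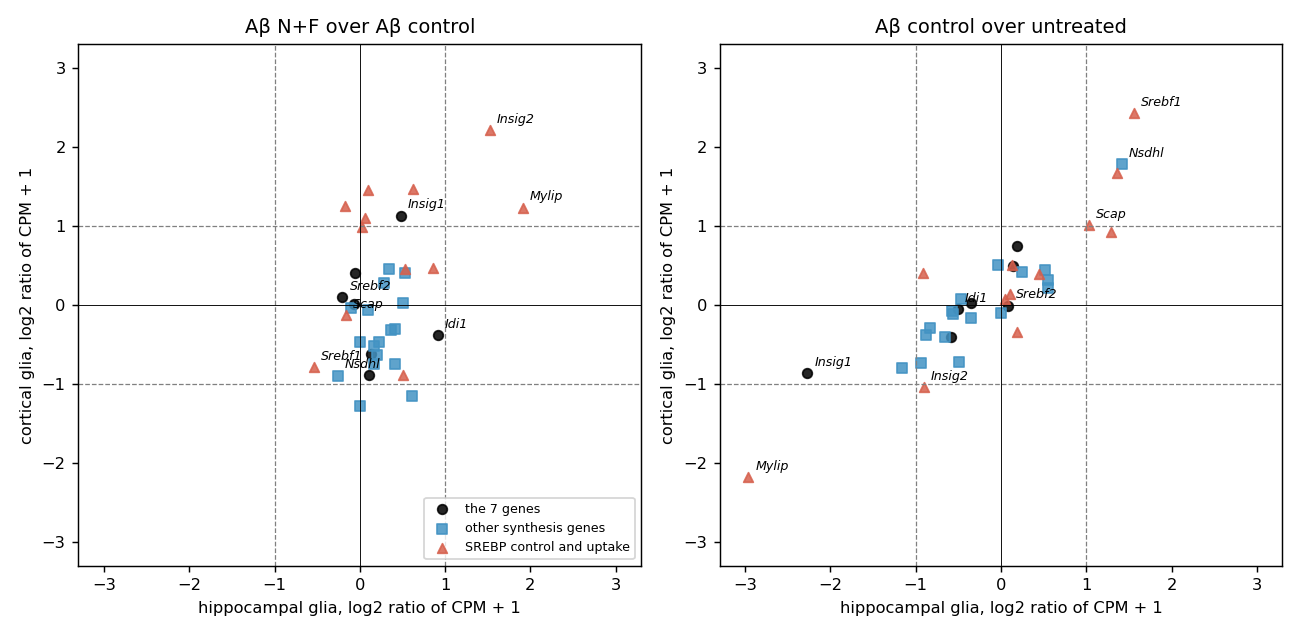
Log2 ratio of CPM + 1 in hippocampal (x axis) and cortical glia (y axis) for N+F over the amyloid beta control (left) and the amyloid beta control over untreated (right), 1 point per gene with at least 1 CPM in a library of each pair. Dashed lines mark 2-fold. With N+F, Insig2 and Mylip lie beyond 2-fold in both regions and the 7 genes do not, and with amyloid beta Srebf1, Nsdhl and Scap lie beyond it and Srebf2 lies near 0.

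Genes with the pattern most like the mean of the 7 were found by Pearson r of log2(CPM + 1) over the libraries of a table, among other genes with a mean of at least 5 CPM and an SD of at least 0.3 on that scale. Over 7 tissue libraries and 2668 genes they were Kcnq3 (r = 0.95), Cckbr (0.92), Crhbp (0.92), Pank3 (0.91) and Aldh7a1 (0.91), all lowest in N+F library 1. Over 6 culture libraries and 10327 genes they were Atf4 (0.99), Yrdc (0.96), Rsrp1 (0.95), Tmem100 (0.95) and Snhg20 (0.95), all lowest in the hippocampal amyloid beta control. Atf4, a transcription factor of the amino acid and stress response, had 82.6 CPM with N+F, 52.4 CPM in the amyloid beta control and 128 CPM in untreated hippocampal glia, and 142, 150 and 152 CPM in the same groups of cortical glia. The mean of the 7 varied little across libraries, with an SD of 0.14 in tissue and 0.22 in culture on the log2 scale, so these ranks describe few points. In culture Insig1 had the widest range of the 7, 7.32-fold, against 1.91-fold for Idi1, the next. The pairs of genes had a median r of -0.08 there. The culture mean thus leans on Insig1 and is not a pattern shared by all 7.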

How the data were processed

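The authors deposited counts per gene symbol, whole numbers with a total of 10194437 to 78273121 per library. TopHat, HISAT2, edgeR and the human build hg19 are named, per the submitters' processing notes, without role or version, although the symbols are mouse, so the build behind the counts was not established and whether reads were counted by strand is not stated. Of the 7 genes 4 overlap another annotated gene in GRCm38, 2 of them on the opposite strand, so reads of such partners cannot be told apart. RNA was extracted with Trizol and made into SMARTER libraries, per the labels' protocols.

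Lines of a symbol were summed (44 of 23282 tissue and 12238 of 36780 culture lines repeat a symbol). Tissue was tested with edgeR 4.0.16 in R 4.3.3 (filterByExpr, TMM, quasi-likelihood, Benjamini-Hochberg over 15523 genes, threshold 0.05), with SE as the absolute log2 fold change over the root of F. The cultures, with 1 library per group, have CPM of the library total, a pseudocount of 1 CPM and a call at 2-fold the same way in both regions with at least 1 CPM in a library of each pair. A secondary edgeR fit with additive region and condition used 16762 genes. Alternatives were DESeq2 1.42.0, other scaling, filters, pseudocounts, lines and left-out libraries. Fits were tested on simulated data. The 7 genes and all lists were chosen with earlier results of these data known. Beside the 7, genes of the other lists were named where they passed the tissue test or were 2-fold apart in the same direction in both regions with N+F, at most 8 per list and direction. Mvk, Ggps1, Nsdhl, Lrp1, Npc2, Srebf1 and Scap met neither condition and were named after their values were seen.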

Additional observations from a re-analysis of the deposited data

Results flagged for a closer look

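In the cultures 6 of the 7 genes had log2 ratios of N+F over the amyloid beta control with opposite signs in hippocampal and cortical glia. They were -0.066 and 0.012 for Hmgcs1, 0.13 and -0.62 for Sqle, -0.20 and 0.10 for Srebf2, 0.91 and -0.39 for Idi1, 0.11 and -0.88 for Fdps, and -0.052 and 0.40 for Dhcr7, in that order of regions. Of all genes 50.6% had opposite signs in this comparison. For the amyloid beta control over untreated, 2 of the 7 had opposite signs, at -0.35 and 0.024 for Hmgcs1 and 0.085 and -0.0099 for Srebf2, against 11.5% of all genes. With 1 library per group the difference between regions was not tested.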

How the results depend on the processing

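In tissue 0 of the 7 genes were called with RLE scaling, no count filter, DESeq2, the line of highest count or any library left out, while calls over all genes were 17 in the fit reported, 29 without a filter, 131 with DESeq2 and 0 to 29 with a library left out. With the replicate number as a block (replicate block), edgeR called 0 of the 7 and 0 of 15316 genes. Srebf2 had the lowest adjusted p, 0.445, with a log2 fold change of -0.34. In that fit 1 of the 7 had an unadjusted p under 0.05, as had 1541 of all genes. Same-numbered libraries had correlations of -0.0013, -0.08 and 0.13, so the numbers were not taken as pairs. With a library left out, log2 fold changes in tissue ran from -0.18 to 0.041 for Hmgcs1 and from -0.18 to 0.0056 for Sqle, above 0 without N+F library 1. In the additive culture fit, with an arm of 1 library assumed to vary like the others, N+F values ran from -0.34 to 0.27 for Hmgcs1, -0.46 to 0.025 for Sqle, -0.35 to 0.24 for Srebf2, -0.12 to 0.67 for Idi1, -0.27 to 0.63 for Dhcr7 and -0.084 to 1.64 for Insig1. Amyloid beta values ran from -0.41 to 0.15 for Hmgcs1, -0.13 to 0.24 for Srebf2, -0.64 to 0.096 for Idi1 and -2.53 to -0.59 for Insig1. With amyloid beta DESeq2 called 1 of the 7, Insig1, where 42.9% of all genes were called. Each culture fit with a library left out leaves 1 library in a group, so only effect sizes are given for these fits. Without both untreated libraries, an alternative chosen after seeing the data, Hmgcs1 had an N+F log2 fold change of -0.0028. With the line of highest count Fdps had an amyloid beta log2 fold change of -0.056. Over the alternatives, 18 of 231 fitted fold changes and 6 of 140 culture log2 ratios of single genes had the other sign, and the causes were not tested. Those ratios were Sqle (-0.0011) and Fdps (-0.019) in hippocampal glia with N+F and Srebf2 (0.028) in cortical glia with amyloid beta under TMM scaling. With the line of highest count they were Hmgcs1 (0.025) in hippocampal glia with N+F, and Fdps (-0.51) in hippocampal and Hmgcs1 (-0.11) in cortical glia with amyloid beta. The culture ratios rest on 1 library per group.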
